A study of Anas platyrhynchos with 6 samples.

Results

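Nuclear receptors other than the sex steroid receptors, together with their coactivators and corepressors, were examined in the ovaries of laying ducks (Anas platyrhynchos). Genes were taken by their symbol in the deposited table. These were numbered nuclear receptors (NR) and the retinoid, thyroid hormone, vitamin D, lipid-sensing and estrogen-related receptors. Also taken were ROR and HNF4 receptors, nuclear receptor coactivators (NCOA) and corepressors (NCOR). The cofactor NRIP1 was sought too but was not found. The rule found 39 genes on 43 of 17169 transcripts, and the row with the highest mean was used for each symbol. Of these, 37 had a mean of at least 1 FPKM (a fragment count divided by transcript length and library size) and entered the test, which covered 13328 transcripts in all. RNA was sequenced from 6 ducks of a full-sib family, of which 3 laid many eggs (high egg number, HEN) and 3 laid few (low egg number, LEN), with 1 library per duck. The ducks were 71 weeks old and had been without feed for 12 h when they were killed. Neither genotype nor any treatment was given for either group.

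Most nuclear receptors are transcription factors that bind a small fat-soluble ligand and then exchange corepressors for coactivators at their target genes. Many of them, including the retinoic acid, thyroid hormone, vitamin D and lipid-sensing receptors, bind DNA as dimers with a retinoid X receptor. Orphan receptors have no established hormone. In the vertebrate ovary the NR5A receptors drive steroid synthesis genes, and others respond to retinoids, lipids and corticosteroids.

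The libraries held between 18213744 and 19831761 fragments, as inferred from the steps between low values, and HEN replicates 2 and 3 stood apart from the other 4. The correlation of log2 levels across genes was 0.965 between these 2 libraries, 0.634 to 0.779 between either of them and another library, and 0.93 to 0.964 among the other 4. The summed level of 10 oocyte and germ cell markers was 19.7 and 15.1 FPKM in HEN replicates 2 and 3, against 497 FPKM in HEN replicate 1 and 532 to 1311 FPKM in LEN. The germ cell genes DDX4 and DAZL were listed at 0 FPKM in HEN replicate 2, and the egg coat gene ZP2 was at 0.152 and 1.72 FPKM in replicates 2 and 3. SYCP3, of the same list, was not low there, at 8.097 and 5.30 FPKM, and its position overlaps that of CHPT1. KIT was at 8.96 FPKM in replicate 2, within its LEN range of 5.77 to 11.1 FPKM, and at 5.43 FPKM in replicate 3, just below it. SYCP3 and KIT made up most of the remaining sum. The sum of 11 cell cycle genes was low in the same libraries, at 37.3 and 87.7 FPKM in HEN replicates 2 and 3. It was 1136 FPKM in HEN replicate 1 and 1038 to 1550 FPKM in LEN. Summed levels of 7 granulosa markers were 125 to 484 FPKM in HEN and 303 to 541 FPKM in LEN. The sum was lowest in HEN replicates 2 and 3, as were FOXL2, STAR and WT1. INHBA, KITLG and FST of this list had higher means in HEN. FSHR was at 22.2 FPKM in HEN replicate 2, within its LEN range, and lowest in replicate 3. Summed levels of 9 theca and stroma markers were 1021 to 1093 FPKM in HEN and 478 to 1017 FPKM in LEN. Those of 12 leukocyte markers were 756 to 1536 and 401 to 757 FPKM. The HEN average exceeded that of LEN for 8 of these markers and was below it for CD3E, CD4, CD79B and PAX5. PAX5 lay below LEN in all HEN ovaries (13.4% of all transcripts), and 3 of the 12 leukocyte markers lay above it (6.92%). CD74 alone was 522 to 724 FPKM of the sum in HEN. The theca and stroma markers did not move together. CYP17A1 and CYP19A1 were lowest in HEN replicates 2 and 3. TCF21, PDGFRB, DCN, LUM, COL3A1 and TNC had every HEN level above every LEN level, as for 6.92% of all transcripts. For LUM the lowest HEN level was 24.4 FPKM and the highest LEN level 24.0 FPKM. CYP17A1 alone was 520.5 FPKM of the sum in LEN replicate 1. Sums of 13 endothelial markers were 230.1 to 489 FPKM in HEN and 166 to 279.9 FPKM in LEN, and those of 7 smooth muscle markers 1287 to 1558 and 519 to 1071 FPKM. Among the endothelial markers only EGFL7 averaged lower in HEN. For 5 of the 7 smooth muscle markers every HEN level lay above every LEN level, as for 6.92% of all transcripts. For ACTA2, of these, the lowest HEN level was 479 FPKM and the highest LEN level 477 FPKM. ACTG2 was highest in HEN replicates 1 and 3 but lowest in replicate 2, at 35.9 FPKM. MYH11 was at 35.6 FPKM in replicate 2, within its LEN range. ACTA2 made up 866 FPKM of the smooth muscle sum in that library. Of the receptors and cofactors whose levels are given here, many were high or low in the same 2 libraries, and the part of cell makeup in their differences was not tested.

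No receptor or cofactor gene passed the test between HEN and LEN. The limma test found 0 of 37 genes, as it found 0% of the 13328 transcripts, at an adjusted p under 0.05. At an unadjusted p under 0.05, 5 of the 37 were lower in HEN (NR0B2, NR3C2, ESRRG, NR4A1 and RXRG) and 0 were higher, against 22.0% of all transcripts in either direction (16.9% lower and 5.10% higher). The HEN and LEN levels did not overlap for 5 genes, which was 13.5% of the genes against 20.3% of all transcripts. All HEN ovaries lay above LEN for RARA and PPARG (6.92% of all transcripts) and below LEN for NR0B2, ESRRG and NR4A1 (13.4%). The SD of the log2 level was larger within HEN than within LEN for 20 genes (54.1%), against 73.6% of all transcripts. The shares at an unadjusted p under 0.05, without overlap and with the larger SD in HEN lay below those of all transcripts. Of the 37 genes, the mean of 18 was higher in HEN and that of 19 lower, with a median difference of -0.01 on the log2(FPKM + 1) scale, where the median of all transcripts was -0.24. After scaling by trimmed means the medians were 0.25 and 0.01, and the mean of 25 genes was higher in HEN. At an unadjusted p under 0.05 this scaling then gave 4 genes higher, among them PPARG, RARA and NR4A3 (9.12% of all transcripts). It gave 4 lower, NR0B2, NR3C2, ESRRG and RXRG (13.1%).

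Where each HEN ovary lay relative to the LEN range was counted for each gene. For 8 of the 37 (21.6%), HEN replicate 1 lay within the LEN range and replicates 2 and 3 both lay below it, as did 28.3% of all transcripts. These were RXRG, NR3C2, NR5A1, VDR, ESRRB, HNF4A, PPARD and NCOA7. For 6 genes (16.2%), among them NR2F6, NR4A3, NR5A2, THRA and THRB, HEN replicate 1 lay within the LEN range and replicates 2 and 3 above it, as for 12.1% of all transcripts. On leaving out HEN replicate 1, 15 of the 37 genes passed at an adjusted p under 0.05, 5 higher and 10 lower, where 48.8% of all transcripts passed (11.8% higher and 37.0% lower). With array weights, which gave HEN replicate 1 a weight of 0.114, limma called 17 genes, 7 higher and 10 lower, where it called 59.4% of all transcripts (16.5% higher and 43.0% lower). Leaving out HEN replicate 1 together with trimmed mean scaling gave 10 higher and 9 lower genes, against 23.0% of all transcripts higher and 26.0% lower, 48.9% in either direction. On leaving out HEN replicates 2 and 3 instead, 0 of the 37 passed, where 0.00750% of all transcripts did. That fit has 1 HEN library, which is assumed to vary like the LEN libraries, and its lack of calls does not show that the groups are alike. Values called higher or lower without HEN replicate 1 compare HEN replicates 2 and 3 with LEN.

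**Figure D1:**
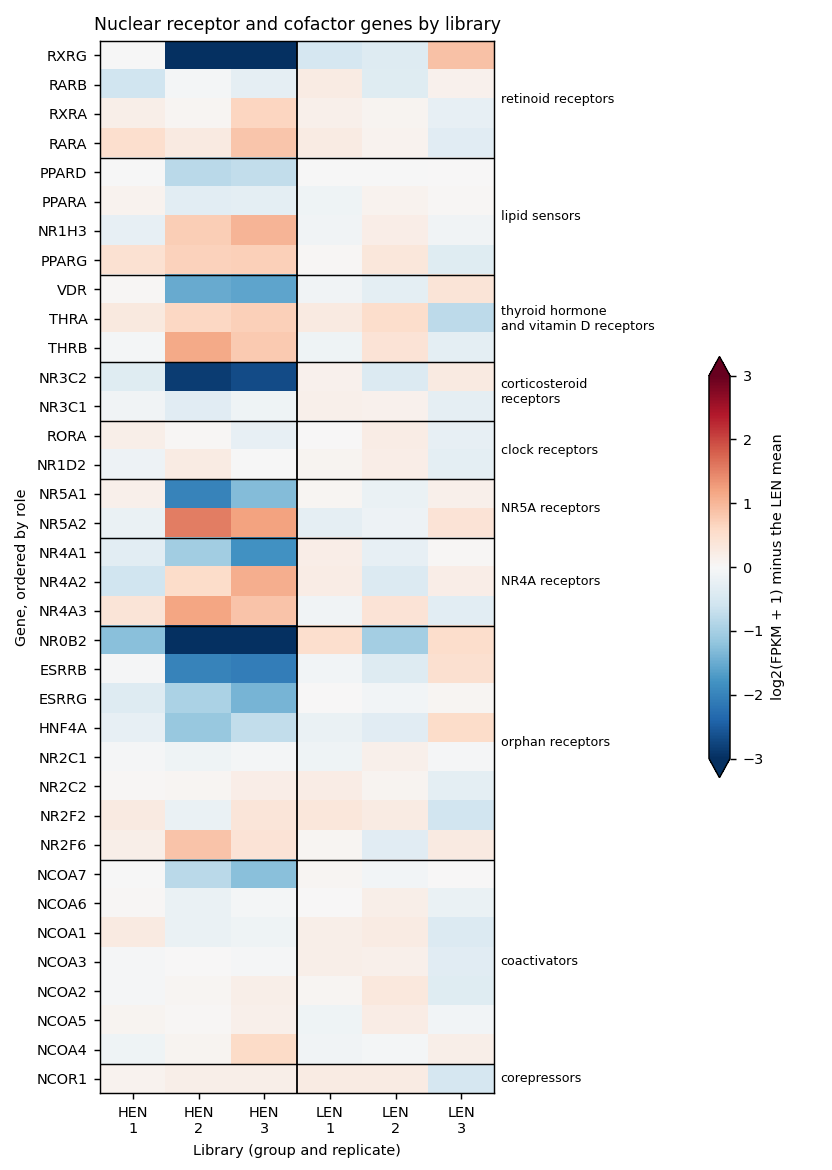
Level of 36 nuclear receptor and cofactor genes in each library (columns, group and replicate) as log2(FPKM + 1) minus the mean of the 3 LEN libraries, ordered by role (rows); colours stop at 3 in either direction. The largest departures, such as those of RXRG, NR3C2 and NR0B2, are in HEN replicates 2 and 3, while HEN replicate 1 is close to LEN for most genes.

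Of 4 retinoid receptors, RXRG had the widest range. RXRG, a retinoid X receptor, had levels of 43.3, 2.72 and 3.42 FPKM in HEN and of 30.9, 33.3 and 82.2 FPKM in LEN, in the order of the replicate numbers as in all values that follow. HEN replicate 1 lay among the LEN ovaries and the other HEN ovaries lay below them, so the groups overlapped. In bulk tissue, fewer cells of a type and less RNA per cell cannot be told apart. The difference was -2.32 ± 0.96 (SE) on the log2 scale, with an adjusted p of 0.226 in limma. Without HEN replicate 1 it was -3.47 (limma adjusted p = 2.65e-04), and without HEN replicates 2 and 3 it was -0.02. RXRA, the other retinoid X receptor found, was at 8.62, 7.78 and 12.2 FPKM in HEN and at 8.41, 7.97 and 6.17 FPKM in LEN. RXRA and RXRG did not show the same pattern, since RXRA varied less than RXRG among the libraries and its highest level was in HEN replicate 3.

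RARA, a retinoic acid receptor, was at 32.1, 27.3 and 40.9 FPKM in HEN and at 26.7, 24.3 and 17.4 FPKM in LEN. All HEN ovaries lay above all LEN ovaries, although HEN replicate 2 was only just above LEN replicate 1. The difference was 0.53 ± 0.26 (SE, limma adjusted p = 0.248), or 0.77 relative to the median of all transcripts. The RARA model starts at base 80 of its scaffold, and its values fit a length of 669 bases, the shortest at which every library holds whole fragments. RARB was at 7.03, 10.5 and 8.95 FPKM in HEN and at 13.3, 8.35 and 12.2 FPKM in LEN, with overlapping groups. RARB lies on scaffold KB744720.1 (549766 to 861205) beside THRB (282100 to 308664) and NR1D2 (225624 to 243632), which do not overlap each other. The HEN and LEN levels of each of these 3 neighbours overlapped.

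Genes of retinoid supply and response were read from the same fit. Of 13 tested, 0 passed, 1 was higher and 3 were lower in HEN at an unadjusted p under 0.05, against 5.10% higher and 16.9% lower of all transcripts. CYP26A1, which degrades retinoic acid and is a classical retinoic acid target, was at 5.92, 0.035 and 0.145 FPKM in HEN and at 10.3, 10.1 and 13.8 FPKM in LEN. All HEN ovaries lay below all LEN ovaries, and HEN replicates 2 and 3 were close to 0. ALDH1A1, an enzyme that makes retinoic acid, was at 9.004, 4.29 and 6.27 FPKM in HEN and at 19.4, 14.1 and 17.3 FPKM in LEN, with a difference of -1.29 ± 0.31 (SE, limma adjusted p = 0.226). ALDH1A2, another enzyme of this step, differed by 0.14 ± 0.33 (SE) with overlapping groups. BCO1, which splits beta-carotene into retinal, was at 2.66, 4.65 and 6.46 FPKM in HEN and at 1.22, 2.04 and 1.38 FPKM in LEN, with all HEN ovaries above LEN. The retinoic acid binding protein gene CRABP1 was at 63.6, 0.455 and 0.843 FPKM in HEN and at 31.4, 62.5 and 17.8 FPKM in LEN. CYP26A1 and CRABP1 were, like RXRG, low in HEN replicates 2 and 3, the libraries in which the summed oocyte markers were low. RARRES1 and DHRS3 of the same list were highest in HEN replicates 2 and 3. Without HEN replicate 1, 3 of the 13 genes were called higher and 6 lower, against 11.8% and 37.0% of all transcripts. A link of these genes with the oocyte markers was not tested.

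Among 4 lipid-sensing receptors, PPARG was higher in all HEN ovaries. PPARG, the fatty acid receptor that drives fat storage genes, was at 15.1, 17.96 and 18.3 FPKM in HEN and at 10.9, 13.8 and 8.17 FPKM in LEN. The groups did not overlap, and the difference was 0.62 ± 0.27 (SE, limma adjusted p = 0.227), or 0.86 relative to the median of all transcripts. HEN replicate 1 shared this direction, and the difference without HEN replicates 2 and 3 was 0.45. PPARD, the most abundant of the PPAR genes, was at 44.9, 25.1 and 26.4 FPKM in HEN and at 44.6, 44.6 and 45.7 FPKM in LEN. The LEN ovaries and HEN replicate 1 were nearly equal, and HEN replicates 2 and 3 lay well below them. Without HEN replicate 1 PPARD differed by -0.78 ± 0.18 (SE, limma adjusted p = 0.0083), and by trimmed mean scaling in the same libraries its adjusted p was 0.111. PPARA, which controls fatty acid oxidation, was at 9.60, 6.91 and 7.01 FPKM in HEN and at 7.95, 9.60 and 9.04 FPKM in LEN, with overlapping groups.

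NR1H3, the oxysterol receptor LXR alpha, was the third most abundant of the 39 genes. It was at 40.9, 82.2 and 99.6 FPKM in HEN and at 45.3, 55.7 and 45.4 FPKM in LEN, so that HEN replicate 1 was lowest and HEN replicates 2 and 3 highest of all ovaries. The difference was 0.51 ± 0.35 (SE, limma adjusted p = 0.354), and without HEN replicate 1 it was 0.88 ± 0.20 (SE, limma adjusted p = 0.00763). Without HEN replicates 2 and 3 its direction turned, at -0.24.

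Of 10 known targets of LXR tested, 0 passed and 0 had an unadjusted p under 0.05, against 22.0% of all transcripts in either direction. Means were higher in HEN for 7 and lower for 3, where 62.9% of all transcripts had a lower mean. The cholesterol exporter ABCA1 was at 9.58, 52.4 and 75.3 FPKM in HEN and at 15.5, 26.97 and 11.9 FPKM in LEN. MYLIP, a ubiquitin ligase that removes the LDL receptor, was at 55.2, 288 and 279 FPKM in HEN and at 61.98, 71.8 and 59.5 FPKM in LEN. As with NR1H3, HEN replicate 1 was the lowest of the 6 ovaries for both genes and HEN replicates 2 and 3 the highest. ABCG4, another sterol transporter, was lower, at 6.44, 1.32 and 1.16 FPKM in HEN against 7.71, 5.03 and 7.62 FPKM in LEN. NPC1 and SCD of the same list were also lowest in HEN replicates 2 and 3. Without HEN replicate 1, 5 of the 10 targets were called higher and 3 lower, against 11.8% and 37.0% of all transcripts. NPC2, which overlaps another gene's position, differed by 0.72 ± 0.36 (SE) with all libraries.

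Of 13 PPAR targets tested, 0 passed and 0 had an unadjusted p under 0.05, against 22.0% of all transcripts. Means were higher in HEN for 9 and lower for 4, where 62.9% of all transcripts had a lower mean. The fatty acid transporter gene CD36 was at 5.49, 52.2 and 59.2 FPKM in HEN and at 7.08, 11.9 and 3.57 FPKM in LEN. ANGPTL4, an inhibitor of lipoprotein lipase, was at 7.31, 55.2 and 71.97 FPKM in HEN and at 9.45, 10.6 and 3.79 FPKM in LEN. Both were high only in HEN replicates 2 and 3 of the 6 libraries, where the summed leukocyte and endothelial markers were also highest. A link of CD36 and ANGPTL4 with these markers was not tested. ADIPOQ, the adiponectin gene, was at 14.7, 12.1 and 10.02 FPKM in HEN and at 9.28, 7.81 and 6.56 FPKM in LEN, with all HEN ovaries above LEN, and the fatty acid oxidation gene ACADL differed by -0.64 ± 0.30 (SE).

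**Figure D2:**
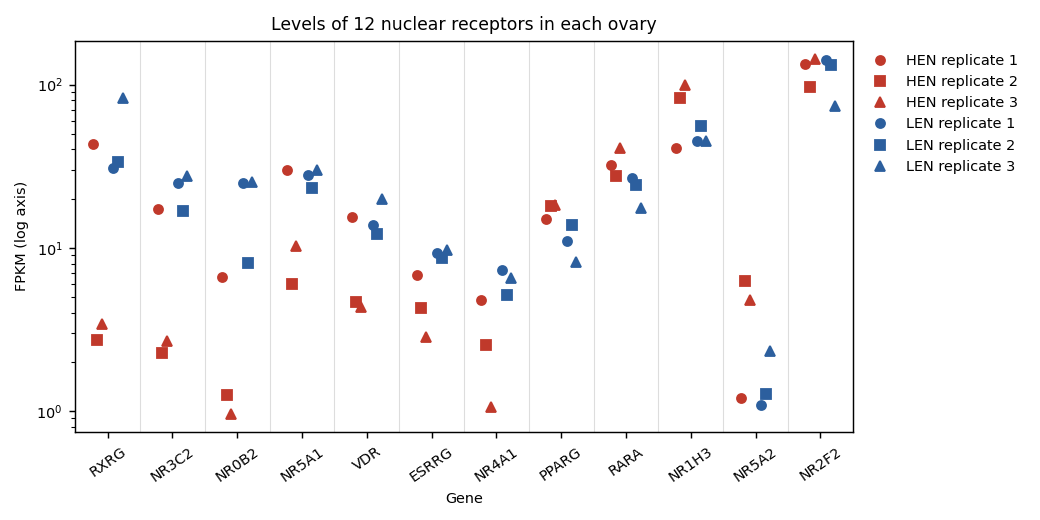
Level of 12 nuclear receptor genes in each of the 6 ovaries, in FPKM on a log axis; each point is a library, with colour for the group and shape for the replicate number. PPARG and RARA lie higher and NR0B2, ESRRG and NR4A1 lower in all HEN ovaries, while RXRG, NR3C2, NR5A1 and VDR are low in HEN replicates 2 and 3 alone.

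The thyroid hormone receptors THRA and THRB were highest in HEN replicates 2 and 3. THRB was at 2.77, 7.597 and 5.78 FPKM in HEN and at 2.58, 4.25 and 2.23 FPKM in LEN, with a difference of 0.62 ± 0.40 (SE, limma adjusted p = 0.327) that was 0.96 ± 0.31 (SE, limma adjusted p = 0.0329) without HEN replicate 1. THRA was at 7.99, 10.2 and 11.1 FPKM in HEN and at 7.76, 9.53 and 3.26 FPKM in LEN, with overlapping groups. The THRA model is a fragment whose values fit a length of 402 bases, with 24 to 81 fragments per library. Of 5 tested genes of thyroid hormone transport, metabolism and response, 0 passed. Against 22.0% of all transcripts, 1 had an unadjusted p under 0.05. This was the transporter SLCO1C1, at 1.11, 0.075 and 0.129 FPKM in HEN against 1.85, 2.29 and 3.09 FPKM in LEN, with all HEN ovaries below LEN. SLC16A10, known to carry aromatic amino acids and thyroid hormone, differed by 0.35 ± 0.24 (SE).

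VDR, the vitamin D receptor, was at 15.5, 4.63 and 4.36 FPKM in HEN and at 13.9, 12.1 and 19.8 FPKM in LEN. HEN replicate 1 lay within the LEN range and the other HEN ovaries below it. The difference was -1.01 ± 0.48 (SE, limma adjusted p = 0.239), -1.54 ± 0.27 (SE, limma adjusted p = 0.00211) without HEN replicate 1, and 0.05 without HEN replicates 2 and 3. Of 3 tested vitamin D genes 0 passed, and 1 (CALB1) had an unadjusted p under 0.05, against 22.0% of all transcripts. The calcium-binding protein gene CALB1, a vitamin D target, was at 0.562, 0 and 0.053 FPKM in HEN and at 3.08, 0.44 and 2.33 FPKM in LEN, with overlapping groups. CYP24A1 of the same list went the other way but was too low to be tested. It was at 0.041, 0.541 and 1.33 FPKM in HEN and at 0, 0.197 and 0.213 FPKM in LEN. CYP2R1, which makes the circulating form of vitamin D, differed by 0.50 ± 0.35 (SE), and CYP27A1, a sterol hydroxylase that overlaps another gene's position, by -0.48 ± 0.38 (SE).

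The corticosteroid receptors were unlike each other in their spread. NR3C2, the mineralocorticoid receptor, was at 17.2, 2.27 and 2.68 FPKM in HEN and at 24.9, 16.7 and 27.5 FPKM in LEN. HEN replicates 2 and 3 lay far below the other 4 ovaries, and HEN replicate 1 was just above LEN replicate 2. The difference was -1.97 ± 0.66 (SE, limma adjusted p = 0.226), -2.76 ± 0.27 (SE, limma adjusted p = 1.32e-04) without HEN replicate 1, and -0.37 without HEN replicates 2 and 3. NR3C1, the glucocorticoid receptor, was at 16.05, 13.6 and 15.7 FPKM in HEN and at 19.3, 19.1 and 14.2 FPKM in LEN. Its groups overlapped, its highest level was 1.42 times its lowest, and its difference of -0.19 ± 0.23 (SE) was 0.07 after scaling by trimmed means.

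Of 11 corticosteroid genes tested 0 passed. An unadjusted p under 0.05 was found for 1, against 22.0% of all transcripts, and the groups did not overlap for 1, against 20.3%. FKBP4, a cochaperone of steroid receptors, was at 74.7, 42.9 and 40.6 FPKM in HEN and at 82.5, 95.2 and 92.8 FPKM in LEN, with all HEN ovaries below LEN and an unadjusted p of 0.0225. FKBP5, a glucocorticoid-induced cochaperone, was at 47.5, 127 and 159 FPKM in HEN and at 49.4, 86.8 and 61.7 FPKM in LEN, with overlapping groups. The metallothionein gene MT4 differed by 1.55 ± 0.65 and the kinase gene SGK1 by 0.43 ± 0.32 (SE). For both, HEN replicate 1 lay within the LEN range and HEN replicates 2 and 3 above it. TSC22D3, the glucocorticoid-induced leucine zipper, differed by 0.01 ± 0.23 (SE) on the log2 scale.

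Receptors of the circadian clock showed overlapping groups. NR1D2 (REV-ERB beta), a repressor of the clock gene ARNTL, was at 21.9, 29.2 and 24.2 FPKM in HEN and at 25.9, 28.2 and 19.5 FPKM in LEN, with a difference of 0.04 ± 0.24 (SE). RORA, which activates ARNTL through the same sites, was at 5.45, 4.88 and 3.87 FPKM in HEN and at 4.79, 5.74 and 3.82 FPKM in LEN, with a difference of -0.01 ± 0.28 (SE). The highest library was 1.49 times the lowest for NR1D2 and 1.504 times for RORA.

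Of 13 other clock genes tested 0 passed. At an unadjusted p under 0.05, 1 was higher and 3 were lower in HEN, against 5.10% higher and 16.9% lower of all transcripts. Means were higher in HEN for 8 and lower for 5, where 62.9% of all transcripts had a lower mean. The median difference of the 13 was 0.57, where that of all transcripts was -0.24. Without HEN replicate 1, 6 were called higher and 3 lower, against 11.8% and 37.0% of all transcripts. BHLHE40 and NFIL3 differed by 1.36 ± 0.76 and 0.72 ± 0.49 (SE), both highest in HEN replicates 2 and 3. ARNTL, the activating clock partner, was at 19.5, 9.81 and 11.97 FPKM in HEN and at 27.4, 23.7 and 29.0 FPKM in LEN, with a difference of -0.96 ± 0.29 (SE, limma adjusted p = 0.226). PER3, a clock repressor, was at 6.42, 3.92 and 3.88 FPKM in HEN and at 9.80, 10.4 and 9.39 FPKM in LEN. The repressor CRY1 was at 60.98, 28.3 and 29.4 FPKM in HEN and at 61.7, 64.0 and 72.5 FPKM in LEN, and HEN replicate 1 was only just below LEN replicate 1. For each of these 3 genes all HEN ovaries lay below all LEN ovaries, as for 13.4% of all transcripts. NPAS2, a paralogue of CLOCK, lay above LEN in all HEN ovaries, at 3.68, 9.096 and 5.29 FPKM against 2.98, 2.11 and 2.995 FPKM. CSNK1E did so too, at 26.2, 28.8 and 31.3 FPKM against 22.9, 25.4 and 10.8 FPKM. These were 2 of the 13 clock genes, against 6.92% of all transcripts. The time of day at which the ducks were killed was not given in the sources used here.

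NR5A1 and NR5A2 went in opposite directions in HEN replicates 2 and 3. NR5A1 (steroidogenic factor 1), the main activator of steroid synthesis genes, was at 29.8, 5.99 and 10.2 FPKM in HEN and at 27.9, 23.2 and 29.8 FPKM in LEN. NR5A2 (LRH-1), its paralogue, was at 1.20, 6.24 and 4.81 FPKM in HEN and at 1.09, 1.27 and 2.35 FPKM in LEN. NR5A1 was lowest and NR5A2 highest in HEN replicates 2 and 3, while HEN replicate 1 lay within the LEN range for both. The differences were -1.05 ± 0.52 for NR5A1 and 0.85 ± 0.50 for NR5A2 (SE), with adjusted p of 0.249 and 0.2996 in limma. Without HEN replicate 1 they were -1.65 ± 0.26 and 1.37 ± 0.32 (SE), with adjusted p of 0.00131 and 0.00874, and without HEN replicates 2 and 3 both turned sign, to 0.15 and -0.19. The position of NR5A1 overlaps another gene on the same strand, which was itself at 2.77 to 8.404 FPKM.

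NR0B2 (SHP), a receptor without a DNA-binding domain that in mammals represses NR5A2 and other receptors, had the smallest unadjusted p of the 37 genes, 0.00645. It was at 6.61, 1.26 and 0.956 FPKM in HEN, and at 24.8, 8.03 and 25.2 FPKM in LEN. All HEN ovaries lay below all LEN ovaries, with HEN replicate 1 close to LEN replicate 2. The difference was -2.50 ± 0.65 (SE, limma adjusted p = 0.226), and -1.26 without HEN replicates 2 and 3. The values of HEN replicates 2 and 3 rested on 19 and 14 fragments and those of LEN on 128 to 384.

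Of 7 tested targets of NR5A1, 0 passed, 3 were lower in HEN at an unadjusted p under 0.05 (16.9% of all transcripts), and 6 had a lower mean (62.9% of all transcripts). The median difference of the 7 was -1.71. The steroid enzyme genes CYP17A1 and CYP19A1 (aromatase) were at 0.095 and 0.146 FPKM and at 2.61 and 5.69 FPKM, respectively, in the HEN ovaries 2 and 3. In HEN replicate 1 CYP17A1 was at 239.6 FPKM and CYP19A1 at 46.7 FPKM, within the LEN ranges of 33.5 to 521 and 40.7 to 70.7 FPKM. SCARB1, the receptor for HDL cholesterol, was at 19.1, 12.9 and 14.4 FPKM in HEN and at 29.5, 19.6 and 42.6 FPKM in LEN. All HEN ovaries lay below LEN, although HEN replicate 1 was close to LEN replicate 2. FDX1 also lay below LEN in all HEN ovaries. These were 2 of the 7 targets, against 13.4% of all transcripts. FDX1, which feeds electrons to steroid enzymes, differed by -0.21 ± 0.19 (SE), and MC2R, the ACTH receptor, was listed at 0 FPKM in HEN replicates 2 and 3. CYP17A1 and CYP19A1 are also among the theca and stroma markers, and the targets STAR and INHBA among the granulosa markers. The differences of these targets are therefore not separate from those of the marker lists.

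The NR4A receptors, which are switched on rapidly by hormones and stress and act without a known ligand, did not share a direction. NR4A1 was at 4.82, 2.53 and 1.06 FPKM in HEN and at 7.35, 5.14 and 6.48 FPKM in LEN, with all HEN ovaries below LEN, although HEN replicate 1 was close to LEN replicate 2. Its difference was -1.06 ± 0.42 (SE, limma adjusted p = 0.226), and -0.82 relative to the median of all transcripts. After scaling by trimmed means it was -0.86, with an unadjusted limma p of 0.0575. NR4A3 was at 2.10, 4.38 and 3.31 FPKM in HEN and at 1.20, 2.19 and 0.921 FPKM in LEN, with a difference of 0.81 ± 0.35 (SE, limma adjusted p = 0.228), with overlapping groups. NR4A2 was at 0.698, 2.79 and 4.51 FPKM in HEN and at 1.999, 0.936 and 1.99 FPKM in LEN, with the lowest and the highest level both in HEN. The NR4A values rested on 20 to 176 fragments per library.

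Of the estrogen-related receptors, which resemble estrogen receptors but bind no estrogen and control mitochondrial energy genes, both found were lower in HEN replicates 2 and 3. ESRRG was at 6.79, 4.30 and 2.86 FPKM in HEN and at 9.26, 8.64 and 9.63 FPKM in LEN. The groups did not overlap, and the LEN ovaries were close to each other. The difference was -0.91 ± 0.32 (SE, limma adjusted p = 0.226), and -0.38 without HEN replicates 2 and 3. ESRRB was at 6.95, 1.01 and 0.921 FPKM in HEN and at 6.64, 5.22 and 10.3 FPKM in LEN, with HEN replicate 1 within the LEN range and a difference of -1.38 ± 0.60 (SE, limma adjusted p = 0.227). Its position overlaps an unnamed gene on the opposite strand, which was itself at 0.254 to 2.78 FPKM.

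NR2F2 (COUP-TFII), an orphan receptor of stromal and theca cells, was the second most abundant of the 39 genes. It was at 134, 96.7 and 144 FPKM in HEN and at 142, 132 and 74.3 FPKM in LEN, with a difference of 0.14 ± 0.31 (SE) with overlapping groups. Its lowest level was in LEN replicate 3, where the sum of the theca and stroma markers was lowest too, at 478 FPKM. That sum was highest in HEN replicate 2, at 1093 FPKM, where NR2F2 was next to lowest. A link between NR2F2 and this sum was not tested. An unnamed gene inside the position of NR2F2 on the opposite strand was at 117 to 213 FPKM. Without strand the fragments of both genes cannot be told apart. NR2F6 was at 5.03, 8.70 and 6.10 FPKM in HEN and at 4.60, 3.24 and 5.49 FPKM in LEN, the highest of 5 rows for this gene, with overlapping groups. The testicular receptors NR2C1 and NR2C2 varied little, with highest levels 1.24 and 1.45 times the lowest and differences of -0.07 ± 0.22 and 0.10 ± 0.23 (SE).

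HNF4A, a liver and gut receptor, was at 1.03, 0.0975 and 0.435 FPKM in HEN and at 1.08, 0.892 and 2.49 FPKM in LEN, and its mean of 1.004 FPKM only just passed the filter. HNF4G and NR2E1, a receptor of neural stem cells, did not pass it. HNF4G was listed at 0 FPKM in HEN replicates 2 and 3 and its other values fit 11 fragments in HEN replicate 1 and 4, 1 and 6 in LEN. NR2E1 was listed at 0 FPKM in the same 2 libraries, with 8 fragments in HEN replicate 1 and 8, 5 and 4 in LEN. A count of 0 allows up to 3 fragments, or 0.0978 FPKM for HNF4G and 0.0899 FPKM for NR2E1 in the shallowest library. HEN replicate 1 lay above the LEN levels of both genes, so the groups overlapped, and neither gene was tested.

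Coactivators, which bring histone acetyltransferases to the receptors, varied little apart from NCOA7. The highest library was under 2 times the lowest for NCOA1 to NCOA6, and for 17 of the 37 genes (45.9%), against 30.2% of all transcripts. NCOA3, of the steroid receptor coactivator family, was at 15.6, 16.1 and 15.6 FPKM in HEN and at 18.2, 17.8 and 12.5 FPKM in LEN, with a difference of -0.01 ± 0.24 (SE). Its relatives NCOA1 and NCOA2 differed by -0.02 ± 0.30 and 0.07 ± 0.26, NCOA5 by 0.09 ± 0.24 and NCOA6 by -0.07 ± 0.23 (SE). NCOA1 lies within the span of an unnamed gene on the same strand at 510.5 to 1455 FPKM, so its level is uncertain.

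NCOA4, which also carries ferritin to the autophagosome, was the most abundant of the 39 genes. It was at 115 FPKM in HEN replicate 1, 134 FPKM in replicate 2 and 188 FPKM in replicate 3, against 117, 120.3 and 141 FPKM in LEN. The sum of 2 erythrocyte markers was 506.9 FPKM in HEN replicate 3 and 38.6 to 102 FPKM in the other libraries. A link between NCOA4 and this sum was not tested. NCOA7, known in mammals to bind estrogen receptors and to take part in protection from oxidation, was at 46.2, 26.2 and 19.0 FPKM in HEN and at 48.9, 44.0 and 47.0 FPKM in LEN. Without HEN replicate 1 NCOA7 differed by -1.03 ± 0.21 (SE, limma adjusted p = 0.00434). With trimmed mean scaling in the same libraries NCOA4 was called too, at 0.74 (limma adjusted p = 0.0239). Of 6 tested partner proteins of the coactivators, such as the acetyltransferases CREBBP and EP300, 0 passed. An unadjusted p under 0.05 was found for 0 of them, against 22.0% of all transcripts. Means were higher in HEN for 5 and lower for 1, where 62.9% of all transcripts had a lower mean. CREBBP differed by 0.37 ± 0.32 and the Mediator subunit MED1 by 0.01 ± 0.22 (SE), KAT2A by -0.73 ± 0.35 and PPARGC1B by 0.41 ± 0.33 (SE). For KAT2A, HEN replicate 1 lay within the LEN range and HEN replicates 2 and 3 below it.

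Corepressors hold histone deacetylases at unliganded receptors. NCOR1 was at 22.97, 24.1 and 24.1 FPKM in HEN and at 25.4, 25.7 and 14.9 FPKM in LEN, with a difference of 0.15 ± 0.27 (SE) whose direction turned without LEN replicate 3. Of 13 tested corepressor partners 0 passed, and 3 were higher and 1 lower in HEN at an unadjusted p under 0.05, against 5.10% higher and 16.9% lower of all transcripts. CTBP1, a corepressor that binds many silencing factors, was at 95.9, 194 and 191 FPKM in HEN and at 85.1, 93.4 and 61.7 FPKM in LEN, and its paralogue CTBP2 was at 11.4, 2.90 and 1.99 FPKM in HEN and at 16.1, 15.04 and 11.4 FPKM in LEN. All HEN ovaries lay above LEN for CTBP1 and below LEN for CTBP2, although HEN replicate 1 was close to the nearest LEN ovary in both. RCOR1, which links deacetylases to a histone demethylase, was higher in all HEN ovaries, at 26.6, 35.4 and 34.0 FPKM against 19.2, 24.4 and 13.1 FPKM. TBL1XR1, a core subunit of the NCOR complexes, differed by 0.89 ± 0.37 (SE), while the deacetylase HDAC3 of the same complexes differed by -0.20 ± 0.27 (SE). For TBL1XR1, HEN replicate 1 lay within the LEN range and HEN replicates 2 and 3 above it.

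**Figure D3:**
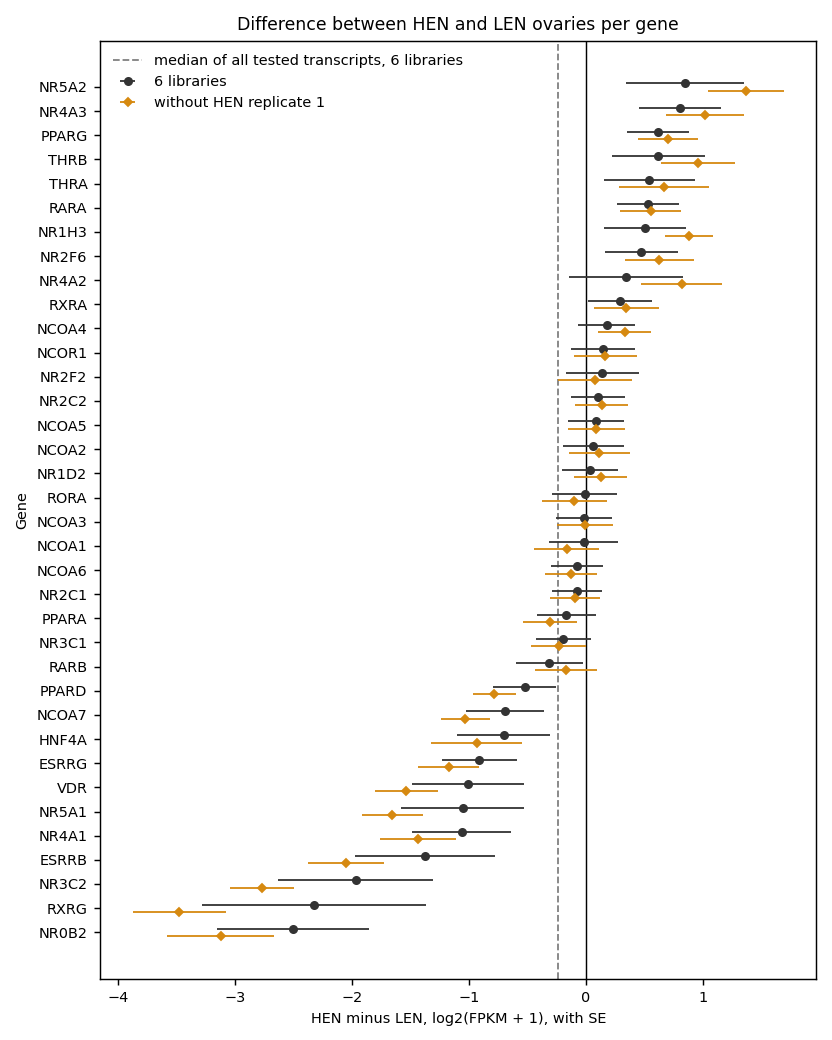
Difference between HEN and LEN for 36 genes on the log2(FPKM + 1) scale with its SE, for all 6 libraries (circles) and without HEN replicate 1 (diamonds); the dashed line is the median of all tested transcripts, at -0.24. NR0B2, RXRG and NR3C2 lie lowest, NCOA1 to NCOA6 lie near 0, and 0 of them passed with all libraries.

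**Figure D4:**
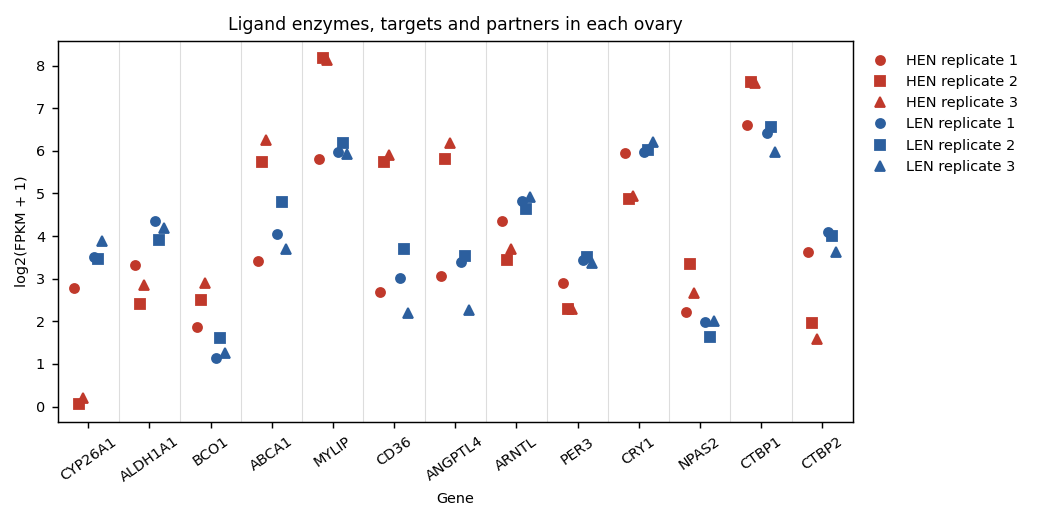
Level of 13 genes of retinoid metabolism, lipid receptor targets, the clock and corepressor partners in each of the 6 ovaries, as log2(FPKM + 1); each point is a library. CYP26A1 is close to 0 and ABCA1, CD36 and ANGPTL4 are highest in HEN replicates 2 and 3. ARNTL, PER3 and CRY1 lie lower and NPAS2 lies higher in all HEN ovaries.

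Ratios of FPKM between members of a family were taken within each ovary, which removes the scaling of the library. In all, 15 pairs were compared, chosen after their values had been seen, and an exact permutation test of 3 against 3 ovaries cannot give a two-sided p below 0.1. The NR5A1 to NR5A2 ratio was 24.7 in HEN replicate 1 and 12.7 to 25.6 in LEN, but 0.959 and 2.12 in HEN replicates 2 and 3. The RXRG to RXRA ratio was 5.02 in HEN replicate 1 and 3.67 to 13.3 in LEN, but 0.3497 and 0.281 in HEN replicates 2 and 3. The NR3C2 to NR3C1 ratio was 1.07, 0.167 and 0.1702 in HEN and 0.875 to 1.94 in LEN. In each of these pairs HEN replicate 1 lay within the LEN range and HEN replicates 2 and 3 below it.

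For 3 of the 15 pairs the HEN and LEN ratios did not overlap, and the share among other gene pairs was not taken. The PPARG to PPARD and PPARG to PPARA pairs share PPARG, whose own levels did not overlap between the groups. In both of these pairs HEN replicate 1 was close to LEN replicate 2. The PPARG to PPARD ratio was 0.336, 0.715 and 0.694 in HEN and 0.245, 0.309 and 0.179 in LEN. The PPARG to PPARA ratio was 1.57, 2.60 and 2.61 in HEN and 1.38, 1.44 and 0.903 in LEN. The NR4A1 to NR4A3 ratio was 2.29, 0.576 and 0.3200 in HEN and 6.12, 2.35 and 7.04 in LEN, with HEN replicate 1 just below LEN replicate 2. Each of these had an exact two-sided permutation p of 0.1, the smallest possible, and an adjusted p of 0.5 over the 15 pairs. The ratios of NR2C1 to NR2C2 and NCOA2 to NCOA3 overlapped between the groups, at 0.498 to 0.774 and 0.636 to 0.817 over the 6 ovaries.

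**Figure D5:**
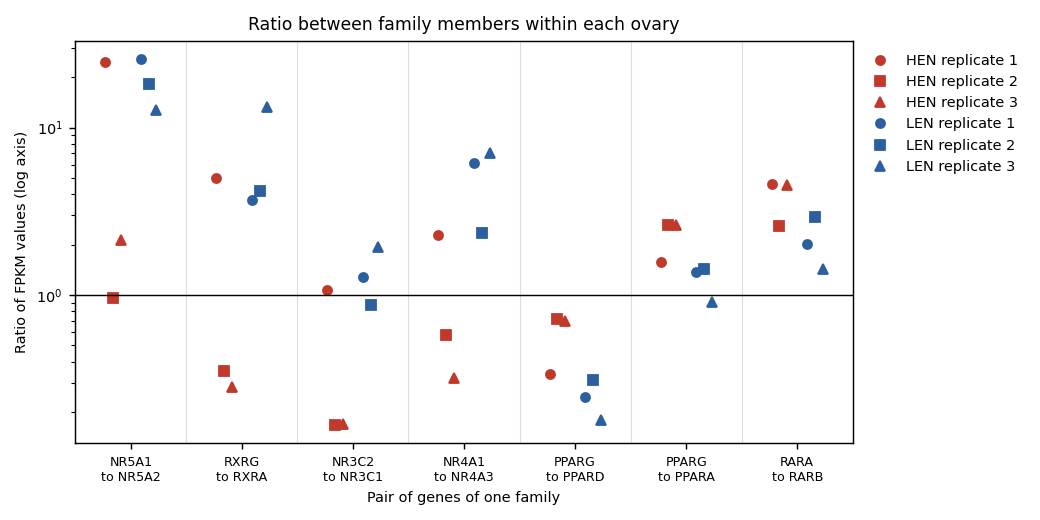
Ratio between FPKM values of 2 genes of a family within each of the 6 ovaries, on a log axis; each point is a library, with colour for the group and shape for the replicate number, and the line marks equal levels. NR5A1 to NR5A2, RXRG to RXRA and NR3C2 to NR3C1 are low in HEN replicates 2 and 3 alone, and PPARG to PPARD lies higher in all HEN ovaries.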

How the data were processed

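The values deposited by the authors are FPKM per transcript, made from sequenced total RNA of 6 duck ovaries. Which aligner, counter, strand setting and genome build they used is not given in the sources used here; coordinates are those of the table. Of 17191 rows, 22 were listed again and used as 1. Library sizes were inferred from 303 short noncoding genes, for which 100% of 968 values were whole fragments within 0.02, and the fragments behind each receptor gene are the smallest whole numbers, within 0.001, at 1 length. Limits from them cover counting error only. Levels were analysed as log2(FPKM + 1), which understates changes of low genes, where the mean reached 1 FPKM. The groups were tested by limma 3.58.1 (R 4.3.3; moderated statistics with a trend, Benjamini-Hochberg adjustment over 13328 transcripts, threshold 0.05). With 1 library per duck, P values measure the spread between libraries, in which the duck and the handling of its sample cannot be told apart. List genes carry the table's symbol or, through the Entrez identifier, that of a RefSeq gene table (IASCAAS_PekinDuck_T2T), which named 710 transcripts. Values in every library are given for genes whose groups did not overlap, with an unadjusted p under 0.05, highest in their role or listed at 0, and for others chosen after their values were seen. From each list of related genes the 3 with the smallest p were named, and others for their role; some of these genes are counted but their values are not reported here. The genes and lists were chosen with earlier results of these data known. Scaling by trimmed means left out 30% of log ratios and 5% of levels at each end. No sequences were available to print.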

Additional observations from a re-analysis of the deposited data

How the results depend on the processing

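The 15 genes with a value in every library by rule kept their direction and their side of the threshold in 224 of 269 values under 18 alternatives. At an adjusted p under 0.05, 0 transcripts and 0 receptor genes were called with all libraries in limma, where 2929 transcripts had an unadjusted p under 0.05. With a pseudocount of 0.1, with scaling to TPM and on leaving out HEN replicates 2 and 3 together, 1 transcript was called in each. Array weights called 7922 transcripts and 17 receptor genes, and leaving out 1 library at a time 0 to 6501 and 0 to 15, with the highest counts without HEN replicate 1. Leaving out HEN replicate 1 together with trimmed mean scaling, added after the data were seen, called 6523 and 19. The median of the receptor genes was 0.26, 0.25 and 0.26 after upper quartile, trimmed mean and quantile scaling, 0.38 in the added setting, and -0.13 to 0.11 on leaving out 1 library at a time. NR3C1 reversed to 0.076, 0.068 and 0.082 under those 3 scalings and to 0.15 in the added setting. NCOR1 and NR2F2 reversed to -0.020 and -0.10 with array weights. Without HEN replicates 2 and 3, NCOA4 was at -0.12, NR1D2 at -0.14, NR1H3 at -0.24, NR5A1 at 0.15 and VDR at 0.047. On leaving out 1 library at a time NCOA4 ranged from -0.017 to 0.33, NCOR1 from -0.10 to 0.27, NR1D2 from -0.11 to 0.14 and NR2F2 from -0.15 to 0.32. The cause of these changes was not tested. With the replicate number as a block 0 transcripts were called. Deviations of same-numbered libraries correlated at 0.02, 0.38 and -0.42 across genes, and those of differently numbered libraries at -0.49 to 0.46. With 3 libraries per group these values cannot show whether the ducks were paired, and the labels state no pairing. HNF4G and NR2E1 rested on at most 11 fragments in any library, HNF4A on 3 and 13 in HEN replicates 2 and 3 and NR0B2 on 19 and 14.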
